A study of Mus musculus with 4 samples.

Results

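IFITM, Ly6, Ifi27l2 and Bst2 genes code for small membrane proteins that interferon induces, and 8 of them are described here across the cells of a mouse pancreatic tumour. The members were taken by gene symbol from the count matrices. They are Ifitm1, Ifitm2, Ifitm3, Ly6e, Ly6a, Bst2, Ifi27l2a and Ifi27l2b, 8 of 32285 genes in the tables. All 4 libraries came from pancreatic ductal adenocarcinomas grown from KPC46, an organoid line, in B6/129 F1J mice. The vehicle group comprised 2 mice given Cremophor, and the treated group comprised 2 mice that received TAK-981, which blocks the enzyme that starts SUMOylation. Each library was 1 dissociated tumour, and age, dose and days of treatment are not given in the sources used here. A single organoid line limits the model to 1 tumour genotype, and dead cells were removed only from suspensions under 70% viability, without a record here of which ones.

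Interferons bind surface receptors, and the kinases and transcription factors below them switch on genes that carry an interferon-stimulated response element or a gamma-activated site in their control regions. IFITM proteins sit in the plasma and endosomal membranes and block the fusion of enveloped viruses. Bst2, also called tetherin, holds budding virus particles at the cell surface. Ly6e and Ly6a are anchored to the outer membrane by a lipid, and Ly6a is the stem cell antigen Sca-1 used to sort mouse progenitor cells. Ifi27l2a and Ifi27l2b belong to the Ifi27 family of small hydrophobic proteins.

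The genes lie in 4 places of GRCm38 (GENCODE vM21). Ifitm1 (chr7:140967221-140969825, plus strand), Ifitm2 (chr7:140954837-140955987, minus strand) and Ifitm3 (chr7:141009586-141010770, minus strand) share a cluster on chromosome 7. Ly6e (chr15:74955051-74959905, plus strand) and Ly6a (chr15:74994877-74998031, minus strand) are neighbours on chromosome 15. Ifi27l2a (chr12:103442167-103443680) and Ifi27l2b (chr12:103450898-103457223), both on the minus strand, adjoin on chromosome 12, and Bst2 (chr8:71534255-71537456, minus strand) stands alone on chromosome 8. RefSeq promoters of the GRCm38.p6 build, 300 bases around the start site, were matched for 4 of the 8 members, namely Ifitm1, Ifitm2, Ifitm3 and Bst2. Ly6e, Ly6a, Ifi27l2a and Ifi27l2b had no entry in the table. The promoter stretches are shown because the members are grouped by their interferon induction, and the capitals mark matches on either strand to GAAANNGAAA, the core of the response element, or TTCNNNGAA, the core of the gamma-activated site. The Ifitm1 stretch is chr7:140967928-140968027, the Ifitm2 stretch chr7:140955988-140956087, the Ifitm3 stretch chr7:141010714-141010743 and the Bst2 stretch chr8:71537539-71537638, each written 5′ to 3′ on the strand of its gene.
Ifitm1: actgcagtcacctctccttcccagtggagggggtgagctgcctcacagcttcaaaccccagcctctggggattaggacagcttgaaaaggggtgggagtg
Ifitm2: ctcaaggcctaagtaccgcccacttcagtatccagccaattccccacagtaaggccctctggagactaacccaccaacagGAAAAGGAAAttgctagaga
Ifitm3: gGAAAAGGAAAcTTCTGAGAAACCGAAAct
Bst2: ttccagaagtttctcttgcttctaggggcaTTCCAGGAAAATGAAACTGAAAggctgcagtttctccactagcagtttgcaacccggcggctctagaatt

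In its 300 bases Ifitm3 had 2 matches to GAAANNGAAA and 1 to TTCNNNGAA, and Bst2 had the same numbers. Ifitm2 had 1 match to GAAANNGAAA and 0 to TTCNNNGAA, and Ifitm1 had 0 of either, which says only that these letters are not in this window. The matches in Ifitm3 and Bst2 overlapped, so the letters of 1 core were partly counted for the other. Across 32851 promoters of the same length, 3.44% held GAAANNGAAA and 8.3% held TTCNNNGAA on either strand. The Ifitm3 stretch lies at bases 2 to 31 after the RefSeq start site, inside the 5′ untranslated region of the GENCODE gene. The Ifitm2 and Bst2 stretches lie upstream of the annotated gene, and the Ifitm1 stretch lies between annotated exons, since a GENCODE transcript of Ifitm1 starts further upstream.

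Libraries held 2872 to 5556 barcodes and 24411656 to 63898758 unique molecular identifiers (UMIs), and 2214 to 4408 cells per library passed the filters. Median depth was 2269 and 4148 UMIs per cell in the vehicle libraries and 5024.5 and 12831 under TAK-981. The median mitochondrial share was 2.93 and 2.70% with vehicle, then 6.90 and 5.11% with TAK-981. Any 2 libraries shared 0 to 6 cell barcodes. The labels name no batch, so preparation and treatment cannot be told apart. Cells were clustered and named from marker lists, and 7 classes had enough cells in every library to be tested. They were the epithelial, the macrophage or monocyte, the fibroblast, the T or NK, the neutrophil, the dendritic and the endothelial class, each meant as cells resembling that type. Counts were summed per class and library, and levels are given as CPM, the counts scaled to a common class total, so the unit of replication is the mouse with n = 2 per group.

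Each member had its own distribution over the classes of the vehicle tumours. Levels of different genes are not compared with each other, because counts were not set against transcript length. Ifitm1 was a gene of myeloid cells, at 2381 and 5402 CPM in dendritic-like cells, 789 and 1213 CPM in neutrophils and 394 and 179 CPM in macrophages of vehicle 1 and vehicle 2. Its next classes, fibroblasts at 39.3 and 20.7 CPM and then T or NK, endothelial and epithelial cells, were lower still, with means of 6.17 to 8.98 CPM in the last 3. Neighbours in that order did not overlap between libraries down to fibroblasts, whereas the ranges of the T or NK, endothelial and epithelial classes overlapped.

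Ifitm2 and Ifitm3 were broader. Ifitm2 had a mean of 1495 CPM in dendritic-like and 1450.2 CPM in neutrophil-like cells of vehicle tumours, whose ranges overlapped, 235 CPM in epithelial and 86.8 CPM in T or NK cells. Ifitm3 had overlapping ranges in dendritic, endothelial, fibroblast and macrophage classes, with means from 1496 to 2183 CPM, and only 26.8 CPM in T or NK and 3.58 CPM in epithelial cells. For Ifitm3 the epithelial level was therefore the lowest of the 7 classes in both vehicle tumours.

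Ly6a was highest in endothelial-like cells in both vehicle tumours, and Ly6e had its highest mean there. Ly6e averaged 856 CPM in endothelial cells, 665 CPM in T or NK cells, 655 CPM in dendritic-like cells and 3.65 CPM in epithelial cells. The dendritic range of Ly6e, 482 to 828 CPM, overlapped the endothelial range, 756 to 956 CPM. Ly6a averaged 577 CPM in endothelial cells, 273 CPM in fibroblasts and 265 CPM in T or NK cells, the last pair with overlapping ranges, but 23.3 CPM in macrophages and 17.0 CPM in neutrophils. The protein is also known as a marker of vascular cells in mice.

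Bst2 in the vehicle tumours was spread over dendritic, endothelial, fibroblast and macrophage classes, with means of 320, 200.1, 174 and 127 CPM, and each pair of neighbours overlapped. It stood at 41.8 CPM in T or NK, 27.6 CPM in epithelial and 22.1 CPM in neutrophil-like cells. Ifi27l2a was at 910 CPM in T or NK cells and 704 CPM in macrophages, overlapping, and at 14.9 CPM in epithelial cells. Ifi27l2b had the opposite distribution to its neighbour: 17.4 and 19.5 CPM in epithelial cells and a mean of 2.47 CPM or less in every other tested class. Epithelial-like cells held 96.7 and 97.8% of all Ifi27l2b UMIs in the vehicle libraries and 93.9 and 96.5% under TAK-981. They were 23.5 and 51.9% of cells with vehicle and 43.5 and 62.8% with TAK-981, and held a larger share than that of the UMIs of all genes. Acinar-like cells, not tested, had a higher Ifi27l2b level than epithelial cells in vehicle 1 and TAK-981 2 and a similar one in TAK-981 1, so the gene was not confined to the epithelial class.

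**Figure D1:**
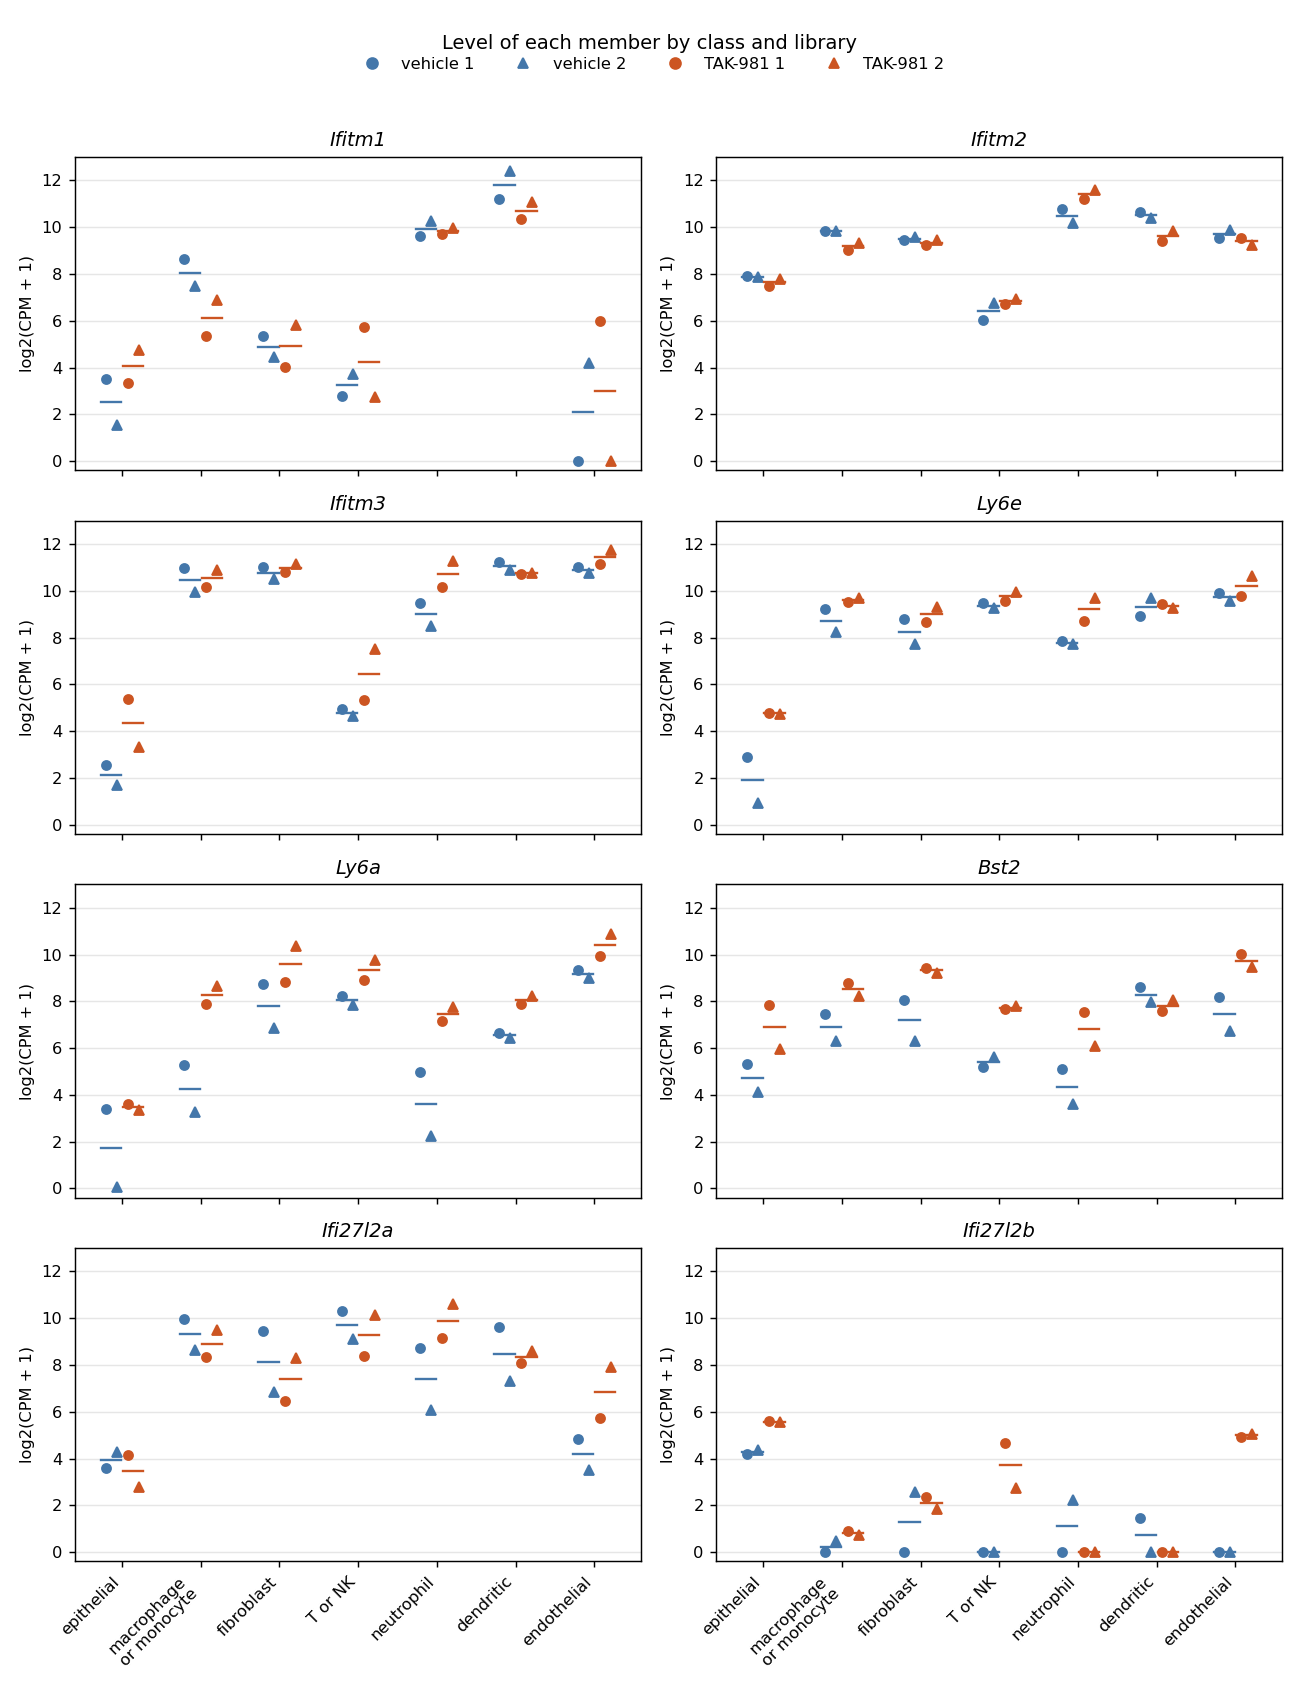
Level of the 8 members as log2(CPM + 1) on the y axis, by class on the x axis, with 1 point per library (blue vehicle, orange TAK-981, circle replicate 1, triangle replicate 2) and lines at the mean of the log values of each group. Ly6a and Bst2 points of TAK-981 lie above those of vehicle in most classes, Ifitm1 points lie below in macrophage and dendritic classes, and Ifi27l2b lies well above 0 in epithelial cells of all 4 libraries.

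Under TAK-981 the 8 genes did not move as a block. Ifi27l2b rose in epithelial-like cells, Bst2 rose in T or NK-like cells and Ly6a rose in dendritic-like cells, and these 3 of 47 tests of a member in a class passed the threshold of an adjusted p under 0.05 (edgeR quasi-likelihood test, Benjamini-Hochberg over all genes of a class). All 3 were higher under TAK-981, and 0 were lower. A further 20 tests had an unadjusted p under 0.05 without passing, in both directions, beside 9.94 to 21.2% of all genes by class at that p. In 23 of the 47 tests both TAK-981 libraries lay above both vehicle libraries, and in 6 both lay below.

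In epithelial-like cells 1 of 8 tested members passed, where 3.04% of the 12655 genes tested passed. For 5 of these 8 members both libraries of 1 group lay above both of the other, beside 53.9% of all genes, so such separation was common in this class. In macrophage-like cells 0 of 7 members passed in edgeR, beside 0.215% of genes, with 4 of raw p under 0.05 (13.4% of genes) and 2 passing in DESeq2 (1.54%), and 5 did not overlap, beside 46.2%. In fibroblasts 0 of 7 passed in edgeR, beside 0.991%, with 2 of raw p under 0.05 (9.94% of genes) and 1 passing in DESeq2 (1.05%), and 2 did not overlap, beside 41.1%. In T or NK cells 1 of 6 passed, beside 0.318%, and 4 did not overlap, beside 45%.
In neutrophils 0 of 6 passed in either tool, beside 0.612% of genes in edgeR and 0.266% in DESeq2, with 4 of raw p under 0.05 (14.2% of genes), and 5 did not overlap, beside 45.1%. The neutrophil class held 548 and 383 cells with vehicle, then 39 and 42 with TAK-981. A cluster led by Hcar2 and Ccl3 also scored best for neutrophil markers but stayed unnamed for few UMIs. It held 210, 77, 5 and 61 cells in the same order, more than the tested class in TAK-981 2, and was not tested. In dendritic-like cells 1 of 7 passed, beside 4.66%, and 4 did not overlap, beside 45.7%. In endothelial-like cells 0 of 6 passed in edgeR, beside 1.82%, with 3 of raw p under 0.05 (16.2% of genes) and 1 passing in DESeq2 (0.836%), and 4 did not overlap, beside 46.1%. The median log2 fold change of the tested members was 1.45 in epithelial, 1.64 in neutrophil, 0.95 in endothelial, 0.90 in T or NK, 0.28 in fibroblast, 0.03 in macrophage and -0.56 in dendritic classes, where that of all genes lay between -0.02 and 0.03. These shares and medians describe the list and set it apart from no other genes.

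**Figure D2:**
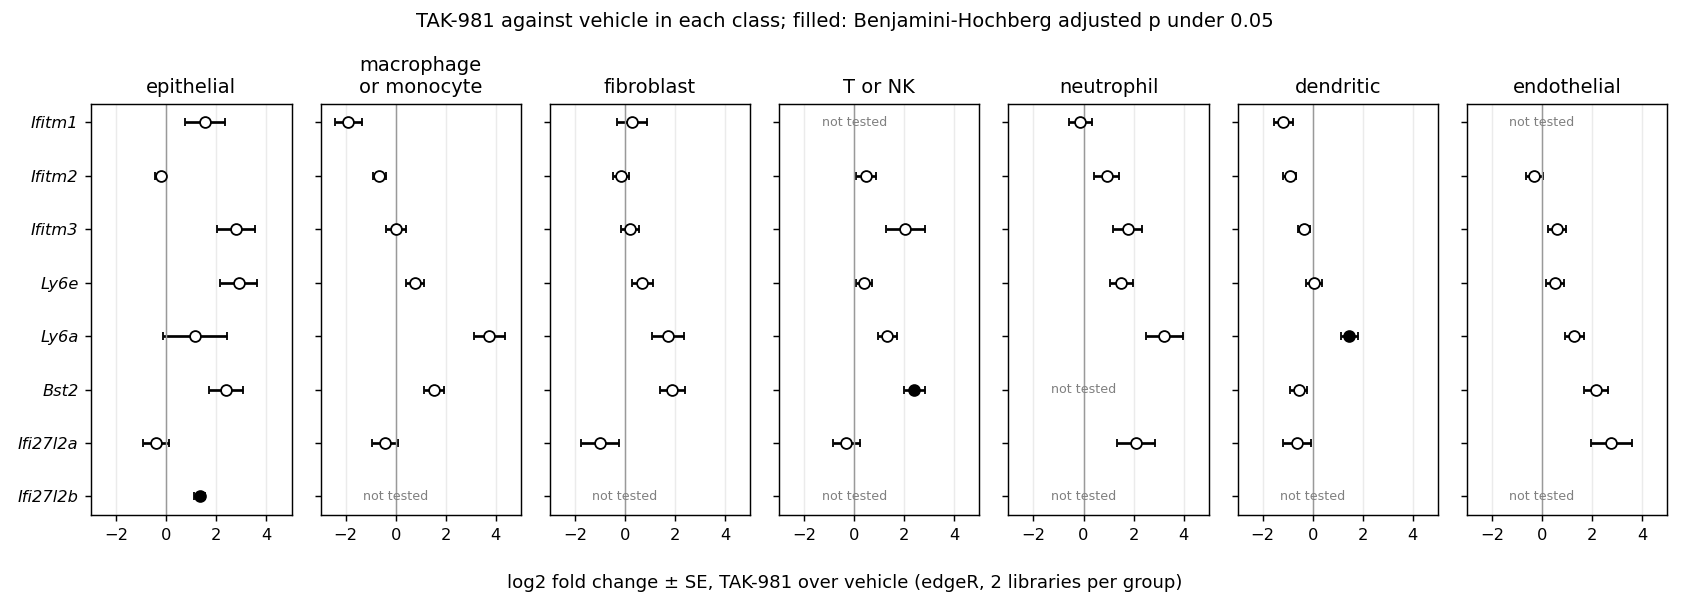
Log2 fold change of TAK-981 over vehicle with its standard error (x axis) for each member (y axis) in each of the 7 classes, from 2 libraries per group. Filled points are Ifi27l2b in epithelial, Bst2 in T or NK and Ly6a in dendritic-like cells, whose adjusted p was under 0.05, and "not tested" marks genes with too few counts for the filter.

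Ifi27l2b, a gene of the Ifi27 family, was at 17.4 CPM in vehicle 1, 19.5 CPM in vehicle 2, 47.0 CPM in TAK-981 1 and 46.3 CPM in TAK-981 2 among epithelial-like cells. The groups did not overlap and replicates differed little, with means of 18.4 ± 1.5 and 46.6 ± 0.534 CPM (SD, n = 2). The log2 fold change was 1.34 ± 0.21 (SE) with an edgeR adjusted p of 0.0327. Acinar markers in the epithelial class moved with the groups, at 17.2 and 6.44 CPM with vehicle and 163 and 73.9 CPM with TAK-981, at which acinar RNA would give 0.00396 CPM of Ifi27l2b in vehicle 1, 0.0924 CPM in TAK-981 1 and 0.0245 CPM in TAK-981 2. Each of the 4 epithelial clusters that all libraries filled showed both TAK-981 libraries above both vehicle libraries. In the cycling cluster, for example, Ifi27l2b was at 11.9 and 18.3 CPM with vehicle, then 49.6 and 53.9 CPM with TAK-981.

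The epithelial class was made of different clusters in the groups. A cluster led by Prl held 262 and 1306 cells of the vehicle libraries and 31 and 97 of the TAK-981 libraries, and clusters led by Hspb1 and by Tff2 were mostly of TAK-981 2. A cluster led by Ttr and Ambp held 8 and 1 cells of the vehicle libraries and 257 and 43 of the TAK-981 libraries. Leaving out the Prl and Gm35533 clusters, whose genes also include the mesothelial marker Msln, kept the Ifi27l2b change at 1.36 ± 0.22 (edgeR adjusted p = 0.0187). In epithelial cells without any macrophage-marker UMI the change was 0.70 ± 0.33 and no longer passed (edgeR adjusted p = 0.294). That subset held 348, 1112, 278 and 434 cells, with medians of 3207.5, 7170, 1066 and 7450 UMIs, so it kept the shallow cells. Without 1 library at a time the change was 1.24 to 1.41, with edgeR adjusted p-values of 0.0645 to 0.111.

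At an equal depth of 1000 UMIs per cell, the share of epithelial-like cells with an Ifi27l2b UMI was 1.54% in vehicle 1 (exact 95% binomial interval 0.866 to 2.53%), 2.19% in vehicle 2 (1.60 to 2.92%), 3.68% in TAK-981 1 (2.46 to 5.28%) and 5.19% in TAK-981 2 (4.24 to 6.29%). Intervals cover counting error only. Unthinned shares were 14.6, 14.1, 36.4 and 49.1%, at median depths of 12796.5, 9588, 10417 and 20581.5 UMIs. Macrophages at the same depth had 0 cells with a UMI in each library, for which the exact interval reaches 0.274 to 0.653%, at median depths of 2857.5 to 7498.5 UMIs. Outside the epithelium, acinar-like cells had 5, 30 and 85 Ifi27l2b UMIs in vehicle 1, TAK-981 1 and TAK-981 2, and vehicle 2 had no such cells. Endothelial-like cells had 0 and 0 UMIs with vehicle, then 13 and 4 with TAK-981, and T or NK cells 0 and 0 and then 8 and 3.

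Ifi27l2a, the neighbouring gene of the same family, had no test past the threshold. In neutrophils it stood at 422 and 67.2 CPM with vehicle, then 563 and 1562 CPM with TAK-981, with a log2 fold change of 2.10 ± 0.76 (edgeR adjusted p = 0.235). In endothelial cells it stood at 28.0 and 10.3 CPM and then 51.8 and 242.5 CPM (2.76 ± 0.82, edgeR adjusted p = 0.131). The endothelial values rest on 6, 3, 23 and 30 UMIs, those of TAK-981 2 from 15 cells. Macrophage RNA would give 20.2, 7.97, 14.6 and 20.6 CPM of Ifi27l2a in endothelial cells, most of the level measured in the vehicle libraries. Both classes had separate groups, and TAK-981 2 was the highest library in each. In the macrophage, T or NK, fibroblast and dendritic classes vehicle 1 was the highest library, at 1012, 1264, 701 and 799 CPM, and the groups overlapped. The longest identical run of Ifi27l2a and Ifi27l2b transcripts was 51 nt, so a read inside it could come from either gene.

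Bst2, the tether of budding virus, rose in T or NK-like cells. It was at 35.4 CPM in vehicle 1, 48.2 CPM in vehicle 2, 206 CPM in TAK-981 1 and 219 CPM in TAK-981 2. These values rest on 6 and 4 UMIs with vehicle, then 67 and 115 UMIs with TAK-981. The groups did not overlap, and the means were 41.8 ± 9.05 and 212 ± 9.47 CPM (SD, n = 2). The log2 fold change was 2.39 ± 0.42 with an edgeR adjusted p of 0.0486. Macrophage markers in the same cells summed to 479 and 1544 CPM with vehicle, then 482 and 255 CPM with TAK-981, so they were not higher under treatment. At those sums macrophage RNA would give 4.09 to 8.78 CPM of Bst2, below each measured value. Acinar markers in the T or NK class did move with the groups, at 154 and 12.1 CPM with vehicle and 1231 and 493 CPM with TAK-981. At those sums acinar RNA would give 0.375 CPM of Bst2 in vehicle 1, 8.002 CPM in TAK-981 1 and 0.576 CPM in TAK-981 2, below each measured value, and vehicle 2 had no acinar cells to compare. Epithelial markers in the T or NK class summed to 106 and 820.1 CPM with vehicle, then 1402 and 341 CPM with TAK-981, and their part in the result was not tested.

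The T or NK call was close to the threshold. The fold change stayed between 2.14 and 2.61 in all alternatives run. With at least 1000 UMIs per cell, with doublets kept, with thinned sums and with a length correction the edgeR adjusted p was 0.1005, 0.0523, 0.0649 and 0.0915, and DESeq2 gave no adjusted p for it (unadjusted p = 0.0011). Without vehicle 1, TAK-981 1 or TAK-981 2 the edgeR adjusted p was 0.186, 0.836 and 0.560, and without vehicle 2 it was 0.0161. At 500 UMIs per cell, 1.90 and 1.45% of T or NK cells had a Bst2 UMI with vehicle, then 11.8 and 8.90% with TAK-981, and the unthinned shares were 3.80, 5.80, 39.7 and 40.4%. Neutrophils, the class with the lowest Bst2 level, had 1.64 and 0.522% and then 7.69 and 2.38% at that depth. The vehicle shares of the T or NK class were therefore at the level of neutrophils.

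Bst2 in the other classes was higher under TAK-981 in all libraries of 5 classes without passing the test. Endothelial cells were at 294 and 106 CPM with vehicle, then 1030.1 and 711 CPM with TAK-981 (2.15 ± 0.47, edgeR adjusted p = 0.0504). All endothelial results rest on 62 and 89 cells with vehicle, then 38 and 15 with TAK-981. Fibroblasts were at 269 and 79.0 CPM and then 687 and 594 CPM (1.90 ± 0.51, edgeR adjusted p = 0.176). Macrophages were at 177 and 77.7 CPM and then 446 and 300.5 CPM (1.54 ± 0.41, edgeR adjusted p = 0.178).
Epithelial cells were at 38.7 and 16.5 CPM in vehicle, 228 CPM in TAK-981 1 and 60.6 CPM in TAK-981 2 (2.39 ± 0.68, edgeR adjusted p = 0.115). Without TAK-981 1 the epithelial change was 1.12 ± 0.45 and without TAK-981 2 it was 3.03 ± 0.47, so its size depended on TAK-981 1. In TAK-981 1 the cluster led by Ttr and Ambp held 2660 of the 4611 epithelial Bst2 UMIs, at 433 CPM. Other epithelial clusters of that library with enough cells were at 86.2 to 243 CPM. In TAK-981 2 the Ttr and Ambp cluster was at 93.7 CPM, and its part in the change was not tested. Macrophage markers in epithelial cells also peaked in TAK-981 1, at 620 CPM beside 119 to 182 CPM in the other libraries, where macrophage RNA would give 11.3 CPM of Bst2. Bst2 was separate in all 4 epithelial and all 4 macrophage clusters that every library filled. Neutrophils, not tested, had 33.1, 11.2, 188 and 67.2 CPM from 12, 3, 12 and 4 UMIs.
In dendritic-like cells the estimate was negative, as Bst2 was at 393 and 247 CPM with vehicle, then 190.0 and 262 CPM with TAK-981, with overlapping groups (-0.56 ± 0.35, edgeR adjusted p = 0.531).

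Ly6a, the Sca-1 antigen, rose in dendritic-like cells. It was at 99.7 CPM in vehicle 1, 86.5 CPM in vehicle 2, 234 CPM in TAK-981 1 and 297 CPM in TAK-981 2. The groups did not overlap, with means of 93.1 ± 9.30 and 265 ± 44.6 CPM (SD, n = 2). The log2 fold change was 1.46 ± 0.34 with an edgeR adjusted p of 0.0455. The class held 236, 34, 32 and 28 cells, and vehicle 2 contributed 7 Ly6a UMIs. Macrophage markers in the dendritic class summed to 972 and 816 CPM with vehicle, then 3147 and 732 CPM with TAK-981, at which macrophage RNA would give 30.2 and 15.9 CPM of Ly6a in the TAK-981 libraries, below the measured values. Acinar markers in the dendritic class summed to 17.8 and 0 CPM with vehicle and 392 and 218 CPM with TAK-981, at which acinar RNA would give 3.16 and 0.468 CPM of Ly6a in the TAK-981 libraries. With at least 1000 UMIs per cell the change was 1.02 ± 0.43 (edgeR adjusted p = 0.265), and DESeq2 gave an adjusted p of 0.115. Without TAK-981 1 the edgeR adjusted p was 0.0137, and without each other library it was 0.0947 to 0.120. Thinned to 1000 UMIs, 7.76 and 9.38% of dendritic-like cells had a Ly6a UMI with vehicle, then 10.0 and 18.5% with TAK-981, with intervals that overlapped.

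The largest Ly6a fold change of the 7 classes was in macrophages. It was at 38.0 CPM in vehicle 1 and 8.50 CPM in vehicle 2, and at 235 CPM in TAK-981 1 and 407 CPM in TAK-981 2. The groups did not overlap, and the log2 fold change was 3.74 ± 0.62, but the edgeR adjusted p of 0.0552 missed the threshold. DESeq2 gave an adjusted p of 0.0103. Without TAK-981 1 or TAK-981 2 the edgeR adjusted p was 0.0053 and 0.0197, and without vehicle 1 or vehicle 2 it was 0.0969 and 0.157. At 1000 UMIs per cell, 3.57% (2.65 to 4.71%) and 0.907% (0.365 to 1.86%) of macrophages had a Ly6a UMI in vehicle, and 11.9% (9.34 to 14.9%) and 17.6% (14.7 to 20.8%) under TAK-981. Epithelial cells, the class with the lowest level, had 0.309, 0.00, 1.45 and 1.01% at that depth.

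Ly6a was unevenly spread over the macrophage clusters. The cluster led by Ifit1bl1, Ifit2 and Ly6c2, interferon-stimulated genes and a monocyte Ly6 gene, held 20, 1, 20 and 92 cells, and in it Ly6a was at 364 CPM in vehicle 1, 3714 CPM in TAK-981 1 and 2851 CPM in TAK-981 2. In the cluster led by Ccl8 and Fcrls, which expressed complement C1q, Ly6a was at 46.8 and 8.9 CPM with vehicle, then 189 and 216 CPM with TAK-981. In the Ccr2 cluster it was at 27.7 and 7.7 CPM and then 54.5 and 76.7 CPM. Groups were separate in all 4 clusters that every library filled. Without the Ifit2 cluster the change over macrophages was 2.54 ± 0.50 (edgeR adjusted p = 0.0822). Ly6a shares identical runs of 89 nt with Ly6c1, 80 nt with Ly6i and 52 nt with Ly6c2, so reads of these genes may have been split or dropped, and the value for Ly6a is uncertain to that extent.

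**Figure D3:**
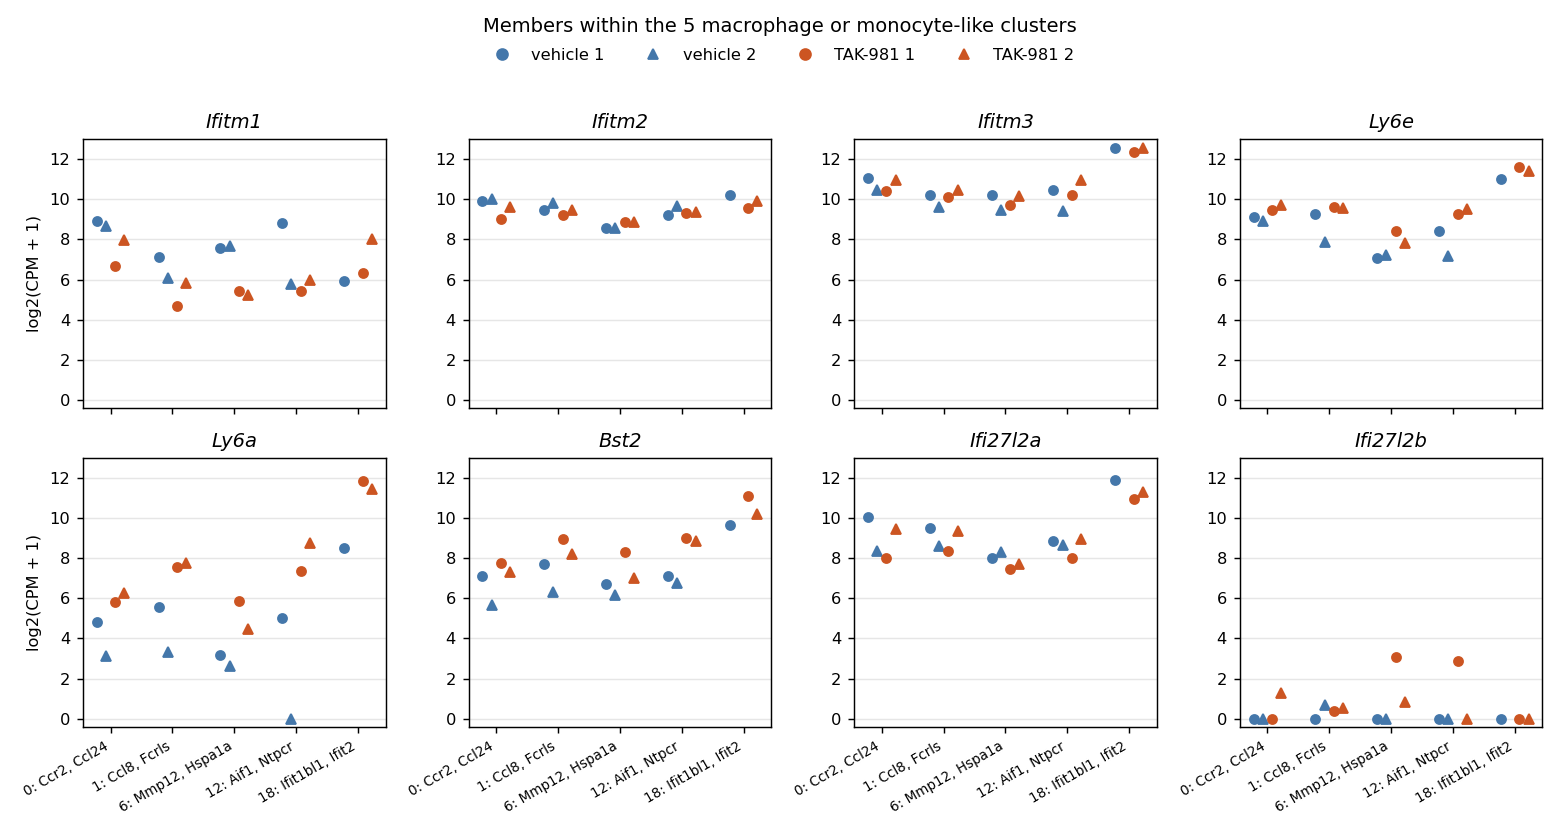
Members as log2(CPM + 1) on the y axis in the 5 macrophage or monocyte-like clusters on the x axis, each named by its number and leading genes, with 1 point per library of at least 15 cells. Ly6a, Bst2 and Ly6e of both TAK-981 libraries lie above both vehicle libraries in the first 4 clusters, Ifitm1 lies below in 3 of them, and vehicle 2 has no point in the Ifit1bl1 and Ifit2 cluster.

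Ly6a did not pass in the other classes. Neutrophils were at 30.3 and 3.73 CPM with vehicle, then 141 and 218 CPM with TAK-981 (3.23 ± 0.75, edgeR adjusted p = 0.0928), from 11, 1, 9 and 13 UMIs. T or NK cells were at 301 and 229 CPM and then 479 and 863 CPM (1.32 ± 0.38, edgeR adjusted p = 0.165), endothelial cells at 639 and 515 CPM and then 980.5 and 1859 CPM (1.29 ± 0.39, edgeR adjusted p = 0.131). In each of these 3 classes the groups did not overlap. Fibroblasts were at 432 CPM in vehicle 1, 114 CPM in vehicle 2, 459 CPM in TAK-981 1 and 1322 CPM in TAK-981 2 (1.72 ± 0.65, edgeR adjusted p = 0.409), and the groups were separate with vehicle 1 close to TAK-981 1. Epithelial cells were at 9.45 and 0.0542 CPM and then 11.3 and 9.13 CPM, overlapping.

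Ly6e, a surface protein that affects the entry of several viruses, had no call in the main test. Its largest fold change was in epithelial cells, at 6.39 and 0.921 CPM with vehicle, then 26.6 and 25.7 CPM with TAK-981. The groups did not overlap (2.89 ± 0.75, edgeR adjusted p = 0.0933). If all macrophage-marker RNA in epithelial cells came with macrophage RNA, that RNA would give 8.36, 1.38, 18.5 and 7.79 CPM of Ly6e, more than was measured in both vehicle libraries and less than in both TAK-981 libraries. In epithelial cells without a macrophage-marker UMI the change was 3.11 ± 0.79 (edgeR adjusted p = 0.0430). Clustered again with other cell filters, without doublet removal or without interferon genes, the epithelial change was 1.59 to 1.90, with edgeR adjusted p-values of 0.353 to 0.457. Macrophages were at 602 and 299 CPM and then 732 and 819 CPM (0.78 ± 0.35, edgeR adjusted p = 0.388), and neutrophils at 232 and 209 CPM and then 422 and 839.9 CPM (1.51 ± 0.47, edgeR adjusted p = 0.172). The dendritic value was 0.05 ± 0.32 and the T or NK value 0.40 ± 0.32.

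**Figure D4:**
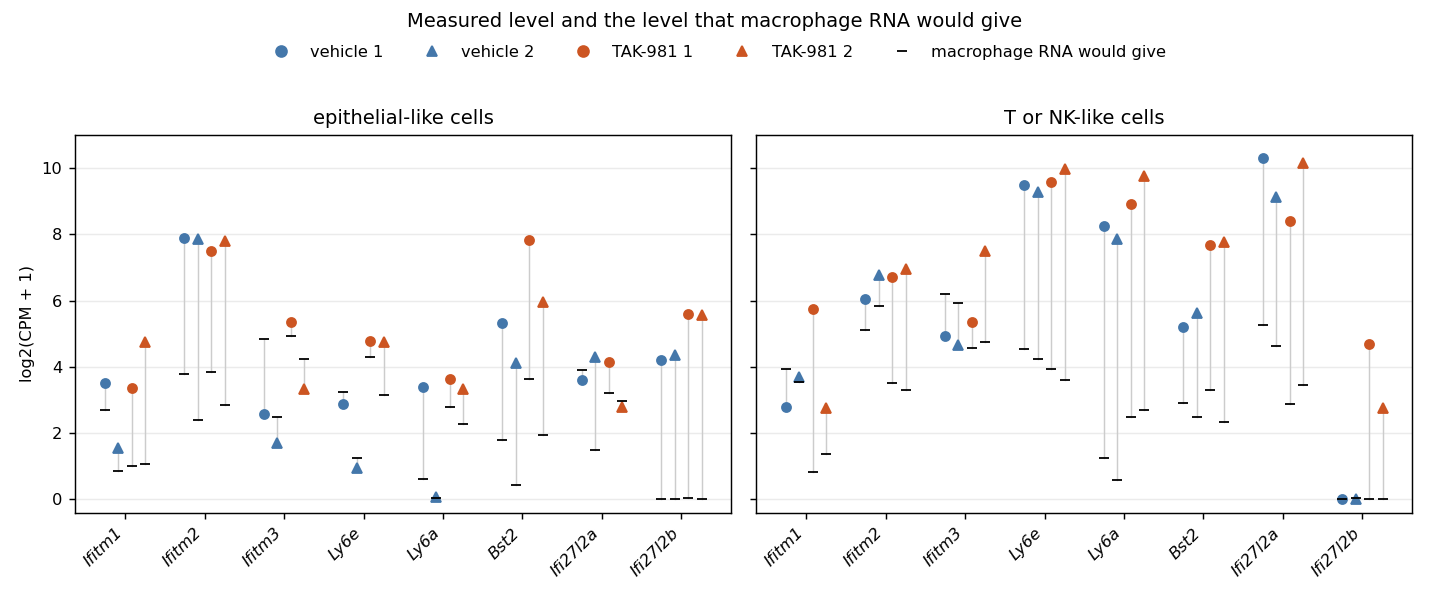
Level of the members as log2(CPM + 1) on the y axis in epithelial-like (left) and T or NK-like cells (right), with coloured points for each library and black bars for the level that macrophage RNA would give at the measured sum of macrophage markers. In epithelial cells Bst2, Ifitm2 and Ifi27l2b lie above the bars in all 4 libraries, as do Ifitm1 and Ly6a, whereas Ifitm3, Ly6e and Ifi27l2a lie above them in some libraries and below them in others. In T or NK cells Ifitm3 lies below the bars in both vehicle libraries and above them in both TAK-981 libraries.

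The IFITM genes, which act against viral entry, divided by gene and by class, and 0 of their 19 tests passed in edgeR. Their count with an unadjusted p under 0.05 was 7, and DESeq2 called Ifitm3 in epithelial cells (adjusted p = 0.0006). Ifitm1 in macrophages was at 394 CPM in vehicle 1, 179 CPM in vehicle 2, 39.4 CPM in TAK-981 1 and 116 CPM in TAK-981 2. Both TAK-981 libraries were below both vehicle libraries (-1.89 ± 0.55, edgeR adjusted p = 0.213), and so they were in 3 of the 4 clusters that every library filled. The Ccr2 cluster, at 479 and 414 CPM of Ifitm1 with vehicle, then 101 and 253 CPM with TAK-981, changed in share. It held 852 of 1488 and 183 of 825 macrophage cells with vehicle, then 81 of 783 and 136 of 674 with TAK-981. Its part in the class value was not tested. At 1000 UMIs per cell, 13.3 and 9.07% of macrophages had an Ifitm1 UMI with vehicle, then 2.66 and 5.03% with TAK-981. In dendritic-like cells Ifitm1 was at 2381 and 5402 CPM and then 1294 and 2131 CPM (-1.17 ± 0.39, edgeR adjusted p = 0.165). In neutrophils it was at 789 and 1213 CPM and then 829 and 1008 CPM, with overlapping groups.

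Ifitm1 in epithelial cells was at 10.4 and 1.95 CPM with vehicle, then 9.21 and 26.1 CPM with TAK-981 (1.56 ± 0.79, edgeR adjusted p = 0.320). The highest epithelial value came from the cluster led by Tff2, a mucus-layer peptide gene, where TAK-981 2 had 370 cells and 151 CPM of Ifitm1. In the other epithelial clusters with enough cells of TAK-981 2, Ifitm1 was at 0.7 to 16.3 CPM. That cluster also had the highest epithelial Ifitm2 level, at 559 CPM.

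Ifitm2 was the steadiest member in epithelial cells, at 237 and 232 CPM with vehicle, then 179 and 220.1 CPM with TAK-981 (-0.23 ± 0.22, edgeR adjusted p = 0.587). In macrophages it was at 919.9 and 929 CPM and then 528 and 649.7 CPM (-0.65 ± 0.25, edgeR adjusted p = 0.330), and in dendritic-like cells at 1630.4 and 1359.7 CPM and then 681 and 905 CPM (-0.92 ± 0.27, edgeR adjusted p = 0.107). In neutrophils it was at 1743 and 1157 CPM and then 2363 and 3125 CPM (0.92 ± 0.50, edgeR adjusted p = 0.456). The groups were separate in each of these classes, below vehicle in the first 3 and above it in neutrophils. The Ifitm2 transcript has 655 nt, and when a trend of the counts on transcript length was removed its epithelial value was 0.59, its fibroblast value 0.37 and its endothelial value 0.32, each opposite in sign to the main value.

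Ifitm3 was separate and higher in epithelial, T or NK, neutrophil and endothelial classes without passing. Neutrophils were at 723 and 358 CPM with vehicle, then 1158 and 2519.8 CPM with TAK-981 (1.76 ± 0.57, edgeR adjusted p = 0.184). Epithelial cells were at 4.94 and 2.22 CPM and then 40.0 and 9.04 CPM (2.80 ± 0.76, edgeR adjusted p = 0.105). Macrophage RNA would give 27.7, 4.6, 29.5 and 17.9 CPM of Ifitm3 in epithelial cells, so only TAK-981 1 exceeded that level. In TAK-981 1 the Ttr and Ambp cluster held 548 of the 809 epithelial Ifitm3 UMIs, at 89.1 CPM. Other epithelial clusters of that library with enough cells were at 11.5 to 37.1 CPM, and the Ttr and Ambp cluster of TAK-981 2 was at 6.88 CPM. Without TAK-981 1 the epithelial change was 1.34 ± 0.52 and in clusterings with other filters it was 1.18 to 1.87. T or NK cells were at 29.5 and 24.1 CPM and then 39.9 and 181 CPM (2.04 ± 0.78, edgeR adjusted p = 0.287). The T or NK values rest on 5, 2, 13 and 95 UMIs. Macrophage RNA would give 73.0 and 59.8 CPM of Ifitm3 in T or NK cells with vehicle, more than was measured. With TAK-981 it would give 22.97 and 25.7 CPM, less than was measured.
In macrophages Ifitm3 was at 1995 and 997 CPM and then 1165.5 and 1886 CPM, with overlapping groups and a log2 fold change of 0.03 ± 0.40. In fibroblasts the value was 0.21 ± 0.36, also with overlapping groups. Ifitm2 and Ifitm3 share an identical run of 69 nt, Ifitm1 and Ifitm3 of 64 nt and Ifitm1 and Ifitm2 of 40 nt, and how the counting treated reads that match several genes is not given in the sources used here.

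The difference of the TAK-981 effect between classes was tested in 3 pairs with the mouse as a block, 23 tests of members in all, and 3 passed. The TAK-981 effect on Ifitm1 differed between epithelial cells and macrophages by 3.82 ± 0.41 on the log2 scale (edgeR adjusted p = 0.0359), higher in epithelial cells. In that pair 0.114% of genes passed. In TAK-981 2, 1276 of the 1547 epithelial Ifitm1 UMIs came from the Tff2 cluster, which held 2 and 1 vehicle cells. In each of the 4 epithelial clusters that every library filled, the groups overlapped for Ifitm1. The effect on Ifitm1 was lower in macrophages than in fibroblasts by a difference of -2.02 ± 0.35 (edgeR adjusted p = 0.0189). The effect on Ly6a was higher in macrophages than in fibroblasts by 2.26 ± 0.33 (edgeR adjusted p = 0.0089), in a pair where 0.268% of genes passed. These are differences in the effect, not in the level. Between epithelial cells and fibroblasts 0 of 8 members passed, where 0.349% of genes passed, and 4 had an unadjusted p under 0.05. DESeq2 called all 3 differences, with adjusted p-values of 0.0097 and below. In fits that left out 1 library, without the mouse block, the 3 differences kept their sign, at 3.03 to 4.26, -2.23 to -1.93 and 1.83 to 2.53, and 0 passed.

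The other 18 pairs of classes were tested in the same way after the data had been seen. Of 132 tests of members 28 passed in edgeR, where 0.761% of genes passed over these pairs, but DESeq2 called only 6 of the 28. In those 6, Ly6e had a larger effect in epithelial than in T or NK cells by 2.72 ± 0.38 (edgeR adjusted p = 2.8e-09), and Ly6a a larger effect in macrophages than in endothelial cells by 2.76 ± 0.37 (edgeR adjusted p = 2.1e-06). The epithelial Ly6e levels of vehicle rest on 75 and 17 UMIs and lay below the level that macrophage RNA would give. Other clusterings gave a smaller epithelial Ly6e change. Bst2 had a lower effect in dendritic than in endothelial cells by -2.60 ± 0.46 (edgeR adjusted p = 5.6e-06). Ifi27l2a had a lower effect in macrophages than in neutrophils (-2.22 ± 0.43, edgeR adjusted p = 0.00024) and endothelial cells (-3.04 ± 0.50, edgeR adjusted p = 0.00012), and in fibroblasts than in neutrophils (-2.69 ± 0.47, edgeR adjusted p = 1.7e-05). The endothelial Ifi27l2a levels of vehicle rest on 6 and 3 UMIs, and macrophage RNA would give most of them. Without vehicle 1 or without vehicle 2, 0 of the 28 passed.

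Genes of the interferon pathway outside the members were read from lists. Of 48 interferon-stimulated antiviral genes, 42 were tested in epithelial cells, and 2 rose and 0 fell, where 3.04% of all genes passed. Their median log2 fold change was 1.82 beside 0.01 for all genes. An unadjusted p under 0.05 was found for 28 of the 42, all higher, beside 21.2% of all genes. In fibroblasts 4 of 37 rose, among them Rsad2, which makes an antiviral nucleotide (0 and 1.97 CPM in vehicle, 55.9 and 142 CPM under TAK-981, 6.23 ± 0.81, edgeR adjusted p = 0.0318), and the list median was 1.3. In neutrophils 3 of 19 rose, Ifit3, Rtp4 and Zbp1, with a list median of 1.57, and in macrophages 1 of 45 rose, Ifit3b, with a list median of 0.97. In the fibroblast, neutrophil and macrophage classes 0.991, 0.612 and 0.215% of all genes passed. At an unadjusted p under 0.05 these classes had 20, 10 and 20 listed genes, all higher, beside 9.94, 14.2 and 13.4% of all genes. In T or NK, dendritic and endothelial classes 0 of 18, 17 and 28 passed in edgeR, beside 0.318, 4.66 and 1.82% of all genes. At an unadjusted p under 0.05 were 4, 2 and 5, beside 13.2, 14.6 and 16.2% of all genes, and the medians were 0.41, 0.01 and 0.62.
Irf7, the factor that amplifies type I interferon, rose in epithelial cells from 0.852 and 0.812 to 13.1 and 9.40 CPM (3.75 ± 0.37, edgeR adjusted p = 0.0166). Of 17 receptor and signalling genes 4 rose in epithelial cells, where 3.04% of all genes passed. Beside Irf7 they were Ifnar2 (1.49 ± 0.28, edgeR adjusted p = 0.0495) and Ifngr2 (1.26 ± 0.23, edgeR adjusted p = 0.0448), chains of the type I and type II interferon receptors, and the factor Irf8, named here after their values were seen. Over all classes 96 tests of these genes gave those 4 calls, all higher.

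Relatives of the members were tested where counts allowed. Among the other Ly6 genes, Ly6g2 rose in epithelial cells, from 0.256 and 0.921 CPM in vehicle to 11.4 and 6.48 CPM under TAK-981 (3.82 ± 0.62, edgeR adjusted p = 0.0327). Over all classes 17 tests of other Ly6 genes gave that 1 call, and at an unadjusted p under 0.05 there were 5 higher, that call included, and 3 lower. By class, 9.94 to 21.2% of all genes had such a p. The 3 lower were Slurp1 (-3.24 ± 0.81, edgeR adjusted p = 0.0865) and Psca (-1.75 ± 0.57, edgeR adjusted p = 0.149) in epithelial cells and Gpihbp1, which anchors lipoprotein lipase to capillaries (-1.32 ± 0.47, edgeR adjusted p = 0.208), in endothelial cells. Ly6c2, a gene of classical monocytes, was in macrophages at 91.9 and 16.2 CPM and then 170 and 349.7 CPM (2.24 ± 0.70, edgeR adjusted p = 0.238). Ifi27, the relative of Ifi27l2b, was in epithelial cells at 48.2 and 41.4 CPM and then 96.8 and 92.5 CPM (1.08 ± 0.22, edgeR adjusted p = 0.0539). Ifitm6, another IFITM gene of myeloid cells, was in dendritic-like cells at 187 and 185 CPM and then 186 and 168 CPM (-0.07 ± 0.32, edgeR adjusted p = 0.9498). Of 5 tests of other IFITM genes 0 passed and 0 had an unadjusted p under 0.05.

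The genes whose levels ran most like each member were found over 20 sums, the 5 classes of at least 30 cells in each of 4 libraries, among 8520 genes. These are descriptions, since sums of 1 library share its depth and preparation. Ly6a ran most like Papola (Pearson r = 0.90), Xaf1 (0.87) and Zbp1 (0.86), the last pair being interferon-stimulated genes. Ifi27l2a ran most like Sp100 (0.93), B2m (0.90), the light chain of MHC class I, and 2210016F16Rik (0.90). Ly6e ran most like Trps1 (0.95), the immunoproteasome subunit Psmb8 (0.94) and 2210016F16Rik (0.94). Bst2 ran most like Ube2l6 (0.83), the conjugating enzyme of Isg15, with Tbpl1 (0.83) and Dnajb11 (0.82) close behind. Ifitm1 ran most like Ptgs2 (0.95), Litaf (0.94) and Trem1 (0.94), the first and last being inflammatory myeloid genes. For Ifitm2 the genes were Pfkfb4 (0.97), Gnaq (0.93) and 6430548M08Rik (0.93), and for Ifitm3 they were Man1c1 (0.92), Arhgap24 (0.91) and Zeb2 (0.89). Ifi27l2b was too low over these sums to be included.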

How the data were processed

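The authors deposited raw counts of unique molecular identifiers (UMIs) for each gene and barcode, made with Cell Ranger 6.1.2 on mm10 per the submitters' processing notes. The members, lists and tests were chosen with earlier results of these data known. Barcodes under 500 UMIs, under 250 genes or over 20% mitochondrial UMIs were left out, and 41 to 168 per library with the top Scrublet scores were removed at 0.8% per 1000 cells. Cells were clustered with scanpy 1.11.5 (2000 variable genes, 30 components, 15 neighbours, Leiden resolution 1.0, seed 0). A cluster took the name of the marker list with the best mean score that had at least 3 unshared markers in 10% of cells, a scoring rule chosen after the data were seen. It stayed unnamed where another such list led its top 10 genes, or with few UMIs and no marker there, so classes are rebuilt and may differ from the study's.

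Class sums (at least 30 cells per library, 15 for dendritic and endothelial) were tested with edgeR 4.0.16 in R 4.3.3 (filterByExpr, TMM, quasi-likelihood F, Benjamini-Hochberg over all genes), after the script was tested on simulated data. CPM uses the TMM-adjusted total. Alternatives were DESeq2 1.42.0, its size factors, no low-count filter, a replicate block, leaving out each library, other cell filters, doublets kept, interferon genes left out of clustering, thinned sums and a length correction. All 8 members are named in each class; like genes are the 3 with the highest Pearson r at a mean of at least 10 CPM, and listed genes are the 3 strongest called per class with fixed reference genes such as Irf7 and Isg15, of which 1 is not reported here. Replicates of a group differed beyond sampling noise (chi-square per degree of freedom 149 and 114). The labels name 4 mice, so p-values measure the spread of 2 mice per group.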

Additional observations from a re-analysis of the deposited data

Results flagged for a closer look

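The tests of the difference between classes singled out 9 results, and none was weighed further. The TAK-981 effect on Ifitm1 was 3.82 higher (log2) in epithelial-like cells than in macrophages and -2.02 in macrophages relative to fibroblasts, and that on Ly6a was 2.26 higher in macrophages than in fibroblasts. Most epithelial Ifitm1 UMIs of TAK-981 2 came from the Tff2 cluster, which vehicle libraries barely filled. Within the epithelial clusters that every library filled, the groups overlapped for Ifitm1. In pairs added after the data were seen, the difference was 2.72 for Ly6e between epithelial and T or NK cells, 2.76 for Ly6a between macrophages and endothelial cells and -2.60 for Bst2 between dendritic and endothelial cells. The epithelial Ly6e levels of vehicle lay below the level that macrophage RNA would give, and other clusterings gave a smaller epithelial change. For Ifi27l2a it was -2.22 between macrophages and neutrophils, -3.04 between macrophages and endothelial cells and -2.69 between fibroblasts and neutrophils. The endothelial Ifi27l2a levels of vehicle rest on 6 and 3 UMIs, and macrophage RNA would give most of them. With 2 libraries per group no sample could be tested as standing apart from its group.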

How the results depend on the processing

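Of 664 values of a member in a class under another setting, 553 kept direction and side of the threshold. A further 58 newly passed, 22 no longer passed and 31 changed sign, and the cause was not tested. Only the 3 results called in the main test could stop passing, so the 22 all belong to them. Most of the 664 values had no call to lose. With DESeq2 the members called numbered 2 in epithelial, 2 in macrophage and 1 in fibroblast classes, beside 6.27, 1.54 and 1.05% of all genes. In T or NK, dendritic and endothelial classes they numbered 0, 0 and 1, beside 0.369, 0.795 and 0.836%. DESeq2 called 5 members among the differences between classes, where 139, 75 and 23 genes passed in the 3 pairs. It called 6 among those of the added pairs, where 0 to 51 genes passed per pair. Without a filter on low counts the members called numbered 6, 3, 2, 3, 2 and 4 in these classes, in the same order. Calls over all genes were then 9.72, 4.23, 2.49, 1.04, 1.67 and 2.66%, a rise in all of them but the dendritic class. In the main test the epithelial and macrophage shares were 3.04 and 0.215%. In neutrophils 1 member was called, beside 0.807% of genes. Among the differences 8 were called, where 472, 319 and 119 genes passed in the 3 pairs. With DESeq2 size factors in edgeR 1 was called in neutrophils and 1 in endothelial cells, beside 1.18 and 1.86% of all genes. Thinned sums gave 1 in macrophages, 0 in T or NK, 0 in dendritic and 2 in endothelial cells, beside 0.929, 0.549, 5.98 and 5.34% of all genes. Removing a length trend gave 0 in T or NK, 0 in dendritic and 2 in endothelial cells, beside 0, 2.01 and 1.97%. With at least 1000 UMIs 0 were called in T or NK and 0 in dendritic cells, beside 0.0246 and 6.13% of all genes. With doublets kept 0 were called in T or NK cells, beside 0.218%. With at most 10% mitochondrial UMIs or interferon genes left out of clustering 0 were called in dendritic cells, beside 4.34 and 3.28%. The 10% limit left too few neutrophils and endothelial cells to be run.

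Leaving out 1 library gave 0 to 2 calls in epithelial, macrophage, fibroblast and neutrophil classes, 0 to 1 in T or NK, 1 to 2 in dendritic and 0 to 3 in endothelial cells, 0 to 0 among the differences and 0 to 7 among the added pairs. A group left with 1 library is assumed to vary like the other group. Ifi27l2a then ranged from -1.36 to 0.12 in epithelial, -1.13 to 0.40 in macrophage, -2.21 to 0.85 in fibroblast, -1.47 to 0.43 in T or NK and -1.31 to 1.05 in dendritic cells. Ifitm3 ranged from -0.40 to 0.61 in macrophages and -0.023 to 0.48 in fibroblasts, Ifitm1 from -0.93 to 0.92 in fibroblasts and -0.54 to 0.028 in neutrophils, and Ly6e from -0.32 to 0.41 in dendritic and -0.040 to 0.88 in endothelial cells.

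Removing a length trend gave 0.59 for Ifitm2 in epithelial, 0.37 in fibroblast and 0.32 in endothelial cells, 0.41 for Ifitm3 and -0.089 for Ly6e in dendritic cells, and, for Ifi27l2a, 0.99 in epithelial, 0.44 in macrophage, 0.0056 in fibroblast, 0.61 in T or NK and 0.91 in dendritic cells. Ifitm3 in macrophages was -0.25 without the Ifit2 cluster, Ifitm1 in fibroblasts -0.035 with doublets kept, Ifitm2 in neutrophils -0.18 with at least 1000 UMIs and Ly6e in dendritic cells -0.15 with thinned sums.

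Replicate numbers did not pair the libraries, since deviations of same-numbered libraries correlated at -0.0672 to -0.205. A replicate block gave 3 members called in epithelial, 2 in neutrophil, 0 in dendritic and 1 in endothelial classes. Of all genes 3.65, 2.23, 3.65 and 0.962% passed there.

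Over all genes, calls higher and lower were 128 and 257 in epithelial cells in edgeR and 603 and 670 in DESeq2, 5 and 18 against 58 and 205 in macrophages, and 23 and 66 in fibroblasts against 0 and 0 with the length trend removed. Depth limits the smaller classes, where the shallowest sums were 97008 UMIs in T or NK and 94286 in dendritic cells, both of vehicle 2, and 69346 in neutrophils of TAK-981 1 and 124583 in endothelial cells of TAK-981 2.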

Other observations

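Acinar-like cells, the enzyme-secreting cells of the pancreas, had 24 cells in vehicle 1, 199 in TAK-981 1, 60 in TAK-981 2 and 0 in vehicle 2, so they entered no comparison. Ifitm3 was at 1339.5 CPM in vehicle 1, 1137 CPM in TAK-981 1 and 1422 CPM in TAK-981 2. Ly6a was at 509, 695 and 595 CPM, Ly6e at 1031, 731 and 757 CPM and Bst2 at 333, 561 and 323 CPM in the same order. Ifi27l2b was at 31.4, 48.9 and 91.5 CPM. In B cells of vehicle 1 (430 cells) Ly6e was at 1098 CPM, Ifi27l2a at 377 CPM and Ly6a at 136 CPM, and the other libraries had 14 cells or fewer.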
